A study of Caenorhabditis elegans with 2 samples.

Results

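The nhr genes of C. elegans, which encode nuclear hormone receptors, were examined for binding by the GATA factor ELT-3. Members were all protein-coding genes of the WBcel235 annotation whose whole symbol is nhr- followed by digits, other than nhr-23, nhr-25, nhr-73, nhr-74 and nhr-85. The rule gave 264 of 19973 protein-coding genes. A region was given to a gene when its summit lay inside the gene or within 2 kb of its 5′ end. The rule for members uses gene symbols alone, but it was chosen with earlier results of these data known. The occupancy of ELT-3 was read by ChIP-seq from whole, mixed-sex larvae of the L1 stage, strain OP75, which carries unc-119(ed3) III and the transgene wgIs75. The transgene stably expresses ELT-3 with GFP and FLAG at its C terminus, and every sample carried it. The 2 samples were labelled as biological replicates 1 and 2 of the same group, with no second genotype, treatment or stage, and the control experiment that the labels name was not analysed here. Chromatin came from whole animals, so weak occupancy in many cells and strong occupancy in few cells cannot be told apart.

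Nuclear hormone receptors are zinc finger transcription factors that bind DNA directly, and many of them change activity when a small lipophilic ligand occupies their ligand-binding domain. Nematodes have an unusually large set of these receptors, most of them related to the vertebrate receptor HNF4, and those with known roles in C. elegans act mainly in fat, vitamin, sterol and toxin metabolism and in development. ELT-3 is a GATA-type factor of the epidermis that recognises GATA words in DNA.

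The deposited lists held 30000 regions from the replicates pooled, 30000 from replicate 1, 15646 from replicate 2 and 253 in the authors' optimal set, in build ce11. The 253 optimal regions, called peaks here, were the pooled regions of largest signal value, so rank 1 is the strongest pooled region and rank 253 the last peak. Signal values are scores that the authors gave to each region, and neither their scale nor the depth of sequencing is given in the sources used here. Regions were 250 bp wide (260 bp in replicate 1) and the summit of each was its middle. The pooled list and that of replicate 1 stopped at 30000 regions and that of replicate 2 was shorter still, so a region may be missing from any of them because the list ended, and such a region is described as not listed. Intervals are 95% exact binomial (Clopper-Pearson) intervals over genes or regions and cover counting error only. No p-value is given, because 1 group leaves no contrast between samples.

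Peaks of the optimal set were found at 5 of the 264 nhr genes, nhr-68, nhr-21, nhr-80, nhr-14 and nhr-57. This was 1.89% of the nhr genes (interval 0.618% to 4.36%), against 1.39% of all protein-coding genes, a share inside that interval. As many of the strongest regions of replicate 2 alone gave 8 genes (1.47% of all genes), and of replicate 1 alone 5 (1.31%). The 5 genes held 8 peaks, since nhr-21, nhr-80 and nhr-14 had 2 each. Of the 8 peaks, 4 lay upstream of the gene, 2 in a 5′ UTR and 2 in an intron. All 8 had a counterpart within 100 bp in both replicate lists. The sequences around 7 of these summits are printed because they show which peaks hold a GATA word and which do not. Each is the ce11 plus strand, 101 bases centred on the summit or, at the 5′ end of nhr-80, 30 bases around the word. The words searched were AGATAA, the variant AGATAG, the variant TGATAA and the variant TGATAG, together called the GATA word, and, apart from these, the overlapping word GATAAG, all on both strands. Capitals mark these words or their reverse complements, and overlapping words run together. Bases are counted along the plus strand from the summit, which is base 0. The peak at the 5′ end of nhr-21 is not printed, as its window runs into the 5′ UTR.
nhr-68 (rank 20), chrV:11572963-11573063: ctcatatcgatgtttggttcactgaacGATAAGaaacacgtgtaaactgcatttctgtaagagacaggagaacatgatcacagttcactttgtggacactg
nhr-21 (rank 49), chrII:7343040-7343140: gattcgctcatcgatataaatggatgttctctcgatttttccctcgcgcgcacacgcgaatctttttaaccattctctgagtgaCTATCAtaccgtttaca
nhr-80 (rank 73), chrIII:15386-15486: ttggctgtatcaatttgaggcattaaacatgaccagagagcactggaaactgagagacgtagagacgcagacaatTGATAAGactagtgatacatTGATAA
nhr-80 (rank 151), chrIII:14846-14875: gagtagtggagcTGATAAcgattttctctg
nhr-14 (rank 81), chrX:8477547-8477647: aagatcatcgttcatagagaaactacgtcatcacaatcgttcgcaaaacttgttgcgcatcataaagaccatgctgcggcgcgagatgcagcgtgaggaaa
nhr-14 (rank 156), chrX:8475259-8475359: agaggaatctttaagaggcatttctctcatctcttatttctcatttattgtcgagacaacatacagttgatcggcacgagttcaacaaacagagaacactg
nhr-57 (rank 161), chrV:4131564-4131664: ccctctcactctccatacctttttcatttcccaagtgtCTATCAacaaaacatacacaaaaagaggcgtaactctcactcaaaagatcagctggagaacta

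nhr-68 had the strongest peak of the family. Its product, together with NHR-10, switches on the propionate shunt when vitamin B12 is low. The gene (WBGene00003658) lies at chrV:11573440-11575709 on the plus strand, and the peak at chrV:11572888-11573137 had its summit at -427 bp from the 5′ end. The signal was 36.6 in replicate 1 and 32.7 in replicate 2, and 75.7 in the pooled list, where it ranked 20. The values of the replicates differed by 1.12-fold. The 5′ end of a neighbour, H12C20.7, was nearer, the summit lying at -23 bp from it, so the peak stands in the reach of both genes. The window around the summit held GATAAG at bases -23 to -18, preceded by C and so outside the 4 GATA words. The whole 250 bp region held 2 GATA words. nhr-10, the partner of nhr-68, had 1 pooled region, at rank 29040 with a signal of 13.7, in neither replicate list. nhr-114, which protects the germ line and acts in amino acid and vitamin B12 metabolism, had 4 pooled regions, the best at rank 2862 in an intron (signal 24.1), listed in replicate 2 at 11.7 and not listed in replicate 1.

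nhr-80 had peaks at both sides of its start. NHR-80 works with NHR-49 to activate fatty acid desaturase genes. The gene (WBGene00003670) lies at chrIII:11985-14869 on the minus strand. The stronger peak, at chrIII:15311-15560, was centred at -567 bp and had a signal of 30.7 in replicate 1 and 28.5 in replicate 2 (pooled 57.4, rank 73). It held the word TGATAA at bases 25 to 30 and again at bases 45 to 50 from the summit, and the occurrence nearer to the summit overlaps GATAAG. The 5′ end of H10E21.1 was nearer to this summit, which lay at -336 bp from it. The second peak, at chrIII:14733-14982, was centred 11 bp inside the gene, in its 5′ UTR, with TGATAA at bases 0 to 5. Its signal was 20.7 in replicate 1 and 26.2 in replicate 2 (pooled 48.8, rank 151). The stronger peak was slightly higher in replicate 1 and the weaker peak higher in replicate 2, and both replicates placed the upstream peak above the peak at the start.

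Other receptors of lipid and fasting metabolism showed weaker regions. nhr-66, whose product partners NHR-49 in lipid metabolism, had the strongest region outside the optimal set, at rank 335 (signal 39.4). The region lay in an annotated 5′ UTR at 6988 bp inside the gene, and at -37 bp from the start of a shorter transcript. It was listed in replicate 1 at 26.4, rank 159, and not listed in replicate 2. Among the replicate lists it was thus seen in 1 only, while the pooled signal was made from both libraries. nhr-62, which is needed for the long life of diet-restricted worms, had an intronic region at rank 932, with a signal of 11.6 in replicate 1 and 16.8 in replicate 2. nhr-49, a regulator of fat use and of the response to fasting, had 6 pooled regions, the best at rank 3073 upstream of the gene (10.8 in replicate 1 and 16.1 in replicate 2). nhr-13, a reported partner of NHR-49, had no pooled region. In this group of 5 genes, 1 had a peak (1.39% of all genes did), 3 had a region of rank 1000 or better (5.29%) and 4 had some pooled region (79.2%). This list was drawn up with earlier results of these data known, and the difference was not tested.

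Both receptors listed for iron and hypoxia had peaks, against 1.39% of all genes, but this list of 2 was drawn up with earlier results of these data known. nhr-14 encodes an HNF4-like receptor that acts in iron uptake. The gene (WBGene00003613) lies at chrX:8473722-8476178 on the minus strand. Its upstream peak at chrX:8477472-8477721, centred at -1419 bp, had a signal of 29.4 in replicate 1 and 26.1 in replicate 2 (pooled 56.0, rank 81). Its intronic peak at chrX:8475184-8475433, centred at 869 bp, had 19.2 in replicate 1 and 28.0 in replicate 2 (pooled 48.4, rank 156). The replicates thus ordered the 2 peaks differently, replicate 1 placing the upstream peak higher and replicate 2 the intronic peak. Neither window held a GATA word or GATAAG within 50 bp of the summit, while the whole intronic region held 3 GATA words and the upstream region 0. nhr-57, which is induced by the hypoxia factor HIF-1, lies at chrV:4131889-4135102 (WBGene00003647, plus strand). Its single peak, at chrV:4131489-4131738 and -275 bp from the 5′ end, had a signal of 19.8 in replicate 1 and 21.8 in replicate 2 (pooled 48.1, rank 161). It held TGATAG on the minus strand, at bases -12 to -7 from the summit, and lay also in the reach of phat-4. This was the weakest nhr peak, and the next nhr region, that of nhr-66 at 39.4, fell below the end of the optimal set, where rank 253 had 42.63 and rank 254 had 42.56.

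nhr-21, for which no role is stated here, had 12 pooled regions over a reach of 11905 bp (gene length 9905 bp), among them 2 peaks. The gene (WBGene00003620) lies at chrII:7339229-7349133 on the plus strand. The stronger peak, at chrII:7342965-7343214, was intronic, 3861 bp inside the gene and -2261 bp from the nearest annotated transcript start. Its signal was 41.8 in replicate 1 and 22.3 in replicate 2 (pooled 63.4, rank 49). Replicate 1 was 1.87-fold higher, and this was the widest gap between replicates among the 8 nhr peaks, whose median was 1.12-fold. The window held TGATAG on the minus strand, at bases 34 to 39. The other peak, at chrII:7339104-7339353, was centred on the 5′ end itself and had 24.4 in replicate 1 and 24.9 in replicate 2 (pooled 49.3, rank 143). No GATA word lay within 50 bp of this summit, and 2 lay within the region. Replicate 1 was higher at 4 of the 8 nhr peaks.

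**Figure D1:**
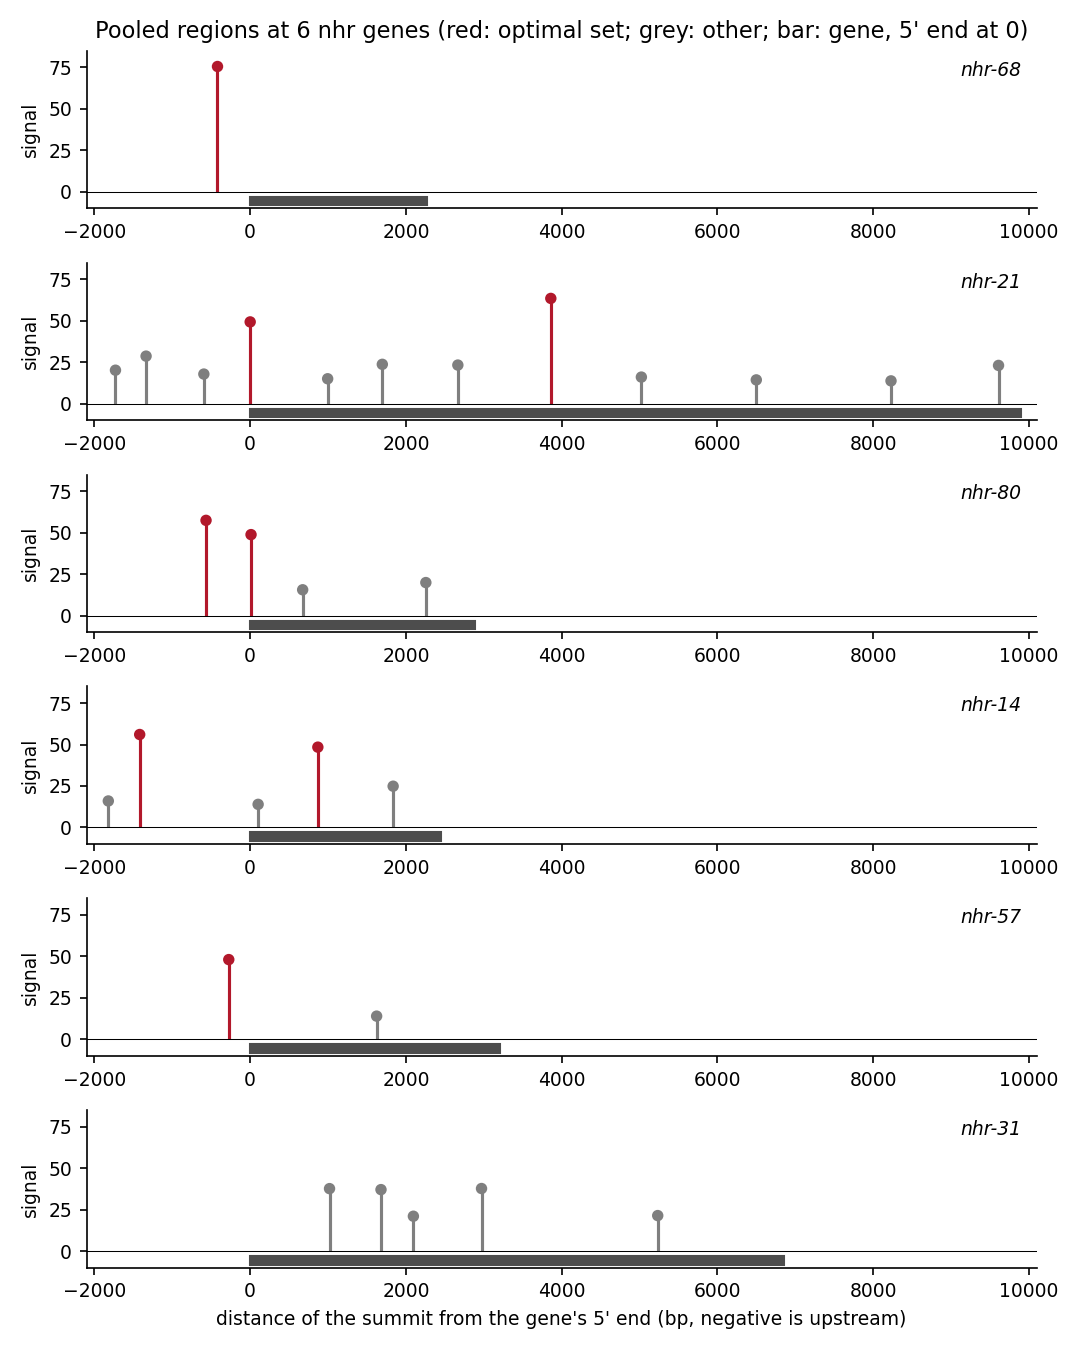
Pooled regions in reach of 6 nhr genes by distance of the summit from the 5′ end of the gene (x axis, bp) and signal value (y axis, the authors' score). Red stems are peaks of the optimal set, grey stems other pooled regions and dark bars the genes. nhr-68 and nhr-57 had a single peak upstream, nhr-80 and nhr-14 had 2 peaks each near the start, nhr-21 had 2 peaks among 12 regions, and nhr-31 had 3 regions of close height inside the gene.

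With the limit lowered to rank 1000, 18 nhr genes had a region in reach, the 5 above included. This was 6.82% of the nhr genes (interval 4.09% to 10.6%), against 5.29% of all protein-coding genes. At rank 500 or better there were 10 nhr genes, or 3.79%, against 2.65% of all genes. At rank 2000 or better there were 26, or 9.85%, against 10.2% of all genes, and at rank 5000 or better 56, or 21.2%, against 23.4% of all genes. Any pooled region at all was found at 214 nhr genes, or 81.1% (interval 75.8% to 85.6%), against 79.2% of all genes. At each of these limits the share of all genes lay inside the interval of the nhr genes, so the family as a whole was near the background.

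**Figure D2:**
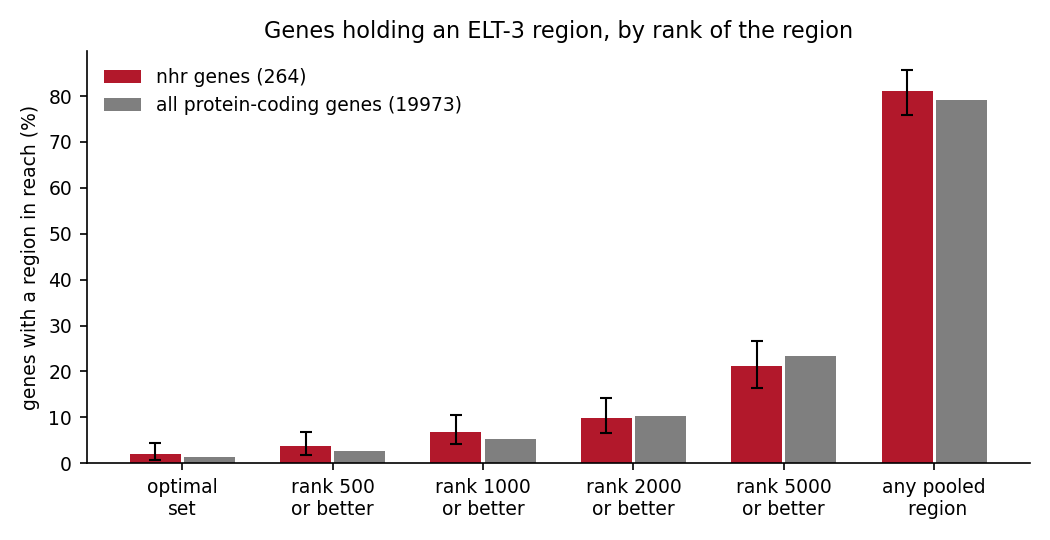
Share of nhr genes (red, with 95% exact binomial intervals) and of all protein-coding genes (grey) with a region in reach, in percent, by the rank limit on the region (x axis). The nhr share is 1.89% for the optimal set and 81.1% for any pooled region, and the grey bars lie within the intervals.

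The 20 nhr regions next in rank after the peaks, ranks 335 to 1093 with signals of 39.4 to 29.2, belonged to 15 genes. Of the 20, 12 lay in introns and 6 upstream, and 17 were matched in both replicates. nhr-31, which acts on proton pump genes in the excretory cell, had 3 of them within its introns, at 2971 bp (rank 373), 1019 bp (rank 376) and 1680 bp (rank 398). Their signals were 19.3, 17.3 and 12.9 in replicate 1, and 16.7, 20.6 and 23.7 in replicate 2 in the same order. The pooled signals, 37.8, 37.8 and 37.2, were close together although the replicates ordered the 3 regions differently. The summit at rank 373 lay at -505 bp from the nearest annotated transcript start of nhr-31. nhr-258 had an upstream region at -1882 bp with nearly equal signals of 17.3 in replicate 1 and 16.6 in replicate 2 (rank 352). nhr-34 had 2 intronic regions, at ranks 399 and 431, with 16.6 and 18.2 in replicate 1 and 16.7 and 14.1 in replicate 2. The summit at rank 399 lay at -953 bp from the nearest annotated transcript start of nhr-34. Of the rest, nhr-19 (rank 548), nhr-46 (rank 632), nhr-22 (rank 948) and 1 of 2 nhr-3 regions (rank 503) were intronic, and the other nhr-3 region (rank 1052) was in a coding exon. nhr-97 (rank 832), nhr-5 (rank 937), nhr-65 (rank 1004) and nhr-32 (rank 1093) had upstream regions, and no role is stated here for them. The GATA word lay within 50 bp of the summit at 5 of the 20 regions. The 4 windows printed below are among those 5 and do not stand for the rest. They hold a single word at nhr-258, nhr-31 and nhr-19 and 4 GATA words in the intron of nhr-27.
nhr-258 (rank 352), chrIV:8043006-8043106: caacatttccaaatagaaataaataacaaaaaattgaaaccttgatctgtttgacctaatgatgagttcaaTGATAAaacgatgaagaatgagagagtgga
nhr-31 (rank 373), chrIV:8026492-8026592: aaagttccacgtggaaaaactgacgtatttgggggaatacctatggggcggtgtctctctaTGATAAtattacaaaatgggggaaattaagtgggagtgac
nhr-19 (rank 548), chrII:9603537-9603637: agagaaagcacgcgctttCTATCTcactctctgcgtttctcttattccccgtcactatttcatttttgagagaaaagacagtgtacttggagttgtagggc
nhr-27 (rank 967), chrX:12797003-12797103: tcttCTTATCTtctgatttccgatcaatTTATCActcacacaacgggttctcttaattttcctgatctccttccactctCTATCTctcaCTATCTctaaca

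nhr-8, a receptor of the sterol and toxin response, had its best region at rank 687, at -1089 bp. The signal was 9.72 in replicate 1 and 19.3 in replicate 2, a gap of 1.98-fold in favour of replicate 2. The nearest 5′ end was that of mrps-24, at -151 bp, and 3 other genes, mrps-24 among them, shared the region. The related receptor gene nhr-48 had 6 pooled regions, the best at rank 3793, listed in replicate 1 at 18.0 and not listed in replicate 2. The remaining receptors of this group ranked lower still. nhr-86, an immune regulator of the intestine, had 1 region at rank 8629 in neither replicate list. nhr-45, which acts in the response to mitochondrial toxins, had its best region at rank 8952 (12.6 in replicate 1 and 9.03 in replicate 2). nhr-176, which acts in the detoxification of thiabendazole, had 1 region at rank 16763 in neither replicate list. Of these 5 genes, 0 had a peak (1.39% of all genes did) and 1 had a region of rank 1000 or better (5.29%).

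The 9 receptors listed for development, or as relatives of receptors found across animals, had 0 peaks (1.39% of all genes had one). They had 0 regions of rank 1000 or better (5.29% of all genes), and 8 had some pooled region (79.2%). With 9 genes these counts are near the background. The best was nhr-60 at rank 1581, intronic, listed in replicate 1 at 17.2 and not listed in replicate 2. nhr-67, the relative of the tailless receptor, had its best region at rank 3502, in an intron 232 bp from the 5′ end, listed in replicate 2 at 11.9 and not listed in replicate 1. nhr-40 (rank 7673), nhr-41 (rank 7923), the NR4A relative nhr-6 (rank 9262) and the HNF4-like nhr-64 (rank 11607) followed. The GCNF relative nhr-91 had 7 pooled regions, yet none above rank 14076, and nhr-2 had 1 at rank 19232. nhr-69, another HNF4-like receptor gene, had no pooled region. Each of these 8 best regions was listed in a single replicate. Across all role lists, 4 of 24 genes had a peak (1.39% of all genes did) and 7 had a region of rank 1000 or better (5.29% of all genes). Among the 240 members outside these lists, 1 had a peak (nhr-21) and 11 had a region of rank 1000 or better. The role lists were drawn up with earlier results of these data known, and no test was made of this difference.

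Other genes of the pathway, taken from a list of 21, had 0 peaks. Of these, 2 had a region of rank 1000 or better (5.29% of all genes did) and 18 had some pooled region (79.2% of all genes), the larger count being near the background. Those of rank 1000 or better were both from the list of 3 coregulators. din-1, a corepressor that works with the receptor DAF-12, had an intronic region at rank 356 (17.2 in replicate 1 and 20.1 in replicate 2). mdt-15, a Mediator subunit that partners NHR-49, had an upstream region at rank 624, listed in replicate 1 at 16.5 and not listed in replicate 2. The remaining coregulator, cbp-1, had its best region at rank 23055 (signal 14.8), in neither replicate list. Among 5 nuclear receptors with other names, daf-12, unc-55, fax-1, odr-7 and sex-1, the best region was that of unc-55 at rank 4098. Of 4 genes of dafachronic acid synthesis, the pathway that makes the DAF-12 ligand, 3 had a pooled region (79.2% of all genes did). The best was hsd-1 at rank 1399. Of 9 known targets of nhr genes, 7 had a pooled region (79.2% of all genes did). The best among them were hach-1 of the propionate shunt, at rank 1210 (11.2 in replicate 1 and 14.2 in replicate 2), and acs-2, the NHR-49 target, at rank 1516 (15.5 in replicate 1 and 12.8 in replicate 2). The desaturase gene fat-6 was at rank 2640, listed in replicate 2 only.

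The nhr genes at the strongest regions of each replicate were compared. Among as many of the strongest regions as the optimal set holds, replicate 1 had regions at 5 nhr genes and replicate 2 at 8. For replicate 1 this was 1.89% (interval 0.618% to 4.36%), against 1.31% of all genes by the same rule. For replicate 2 it was 3.03% (interval 1.32% to 5.88%), against 1.47% of all genes. Both intervals included the share of all genes, and they overlapped. nhr-14, nhr-21, nhr-68 and nhr-80 were in both sets. nhr-66 was in the set of replicate 1 only, and nhr-5, nhr-22, nhr-31 and nhr-57 in that of replicate 2 only. Thus 4 of the 5 genes with a peak were held by each replicate alone, and nhr-57 was held by replicate 2, where its region ranked 250, against rank 653 in replicate 1. nhr-5 had its region at rank 129 in replicate 2 (signal 26.9), was not listed in replicate 1 and ranked 937 in the pooled list. nhr-22 had 10.1 in replicate 1 and 21.9 in replicate 2, a 2.17-fold gap, and nhr-97 had 11.6 and 17.0 in the same order, a 1.47-fold gap. These gaps, like the next, are for the best-ranked matched region of each gene at rank 1000 or better. Among the further regions of such genes, the nhr-31 region at rank 398 lay between nhr-8 and nhr-97, with a ratio of replicate 1 over replicate 2 of 0.543. With replicate 1 the higher, the widest gaps on this measure besides that of nhr-21 were at nhr-3 and nhr-46. nhr-3 had 21.7 in replicate 1 and 11.3 in replicate 2 (1.91-fold), and nhr-46 had 16.5 and 12.3 (1.34-fold). Any region at all was found at 214 nhr genes in replicate 1, or 81.1%, against 79.6% of all genes, and at 148 in replicate 2, or 56.1%, against 55.9% of all genes.

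The nhr genes held 484 distinct pooled regions, of which 69 were matched in both replicates, or 14.3% (interval 11.3% to 17.7%), against 15.04% of the other pooled regions. Neither replicate list held 99 of them, or 20.5%. All 8 peaks were matched in both lists, as were 15 of the 17 nhr regions of rank 254 to 1000, 24 of the 56 of rank 1001 to 5000 and 22 of the 403 of lower rank. In the same order these were 100%, 88.2%, 42.9% and 5.46%, against 97.1%, 83.0%, 50.5% and 6.53% of the other pooled regions. Over the 69 matched nhr regions the signals of the replicates had a Spearman correlation of 0.57, against 0.28 over the other matched regions. Peaks made 8 of the 69 and 238 of the 4439 others, so the mix of ranks differed. Within rank classes of nhr regions the correlation was 0.17 at the peaks, -0.53 at ranks 254 to 1000, -0.06 at ranks 1001 to 5000 and -0.13 at lower ranks. Within the same classes of the other regions it was -0.009, -0.55, -0.36 and -0.12. These values describe regions that share both libraries and whose pooled rank was made from them. A gap of more than 2-fold between replicates occurred at 2 of the 69, and at 146 of the 4439 other matched regions.

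**Figure D3:**
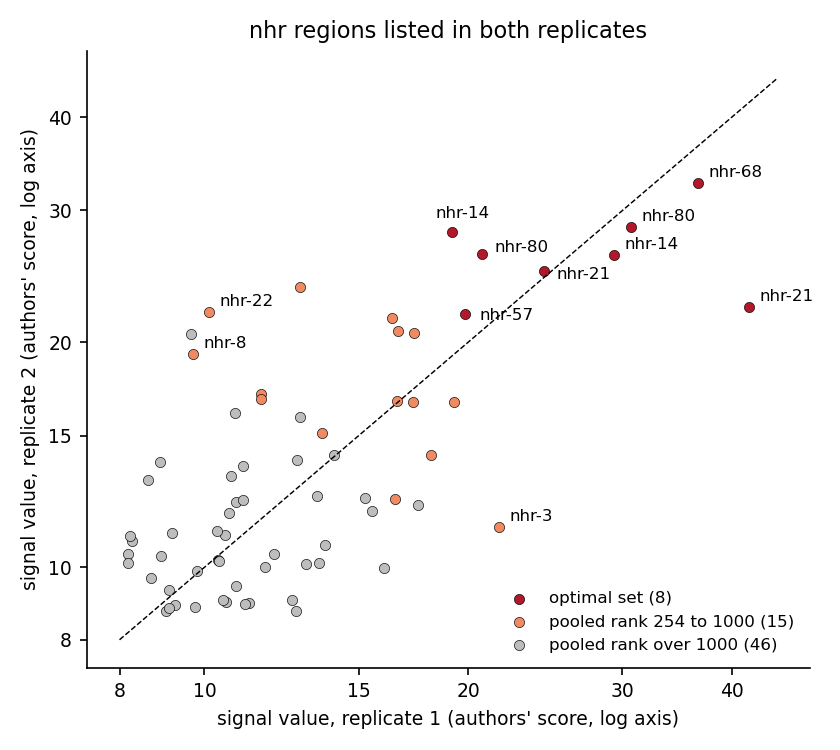
Signal value of the 69 nhr regions listed in both replicates, replicate 1 on the x axis and replicate 2 on the y axis, both log axes of the authors' score; the dashed line marks equal values. The 8 peaks (red) lie at the upper right, with nhr-68 near the line and the intronic nhr-21 peak far to the right of it, while nhr-22 and nhr-8 lie above the line and nhr-3 below it.

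The family was concentrated on chromosome V, which held 167 of its genes, or 63.3%, against 25% of all protein-coding genes. A split by chromosome was made after the values were seen. On chromosome V, 2 of 167 nhr genes (nhr-57 and nhr-68) had a region of rank 1000 or better, or 1.20% (interval 0.145% to 4.26%), against 3.44% of all genes there. On the other chromosomes 16 of 97 did, or 16.5% (interval 9.73% to 25.4%), against 5.91% of all genes there, a share below that interval. With the list of replicate 2 alone the counts were 16 elsewhere, against 5.88% of all genes, and 5 on V (2.99%), against 4.005%. With that of replicate 1 alone they were 9 elsewhere, or 9.28% (interval 4.33% to 16.9%), against 5.89% of all genes, and 3 on V (1.80%), against 3.68%, so the interval off chromosome V then included the share of all genes. It did so too for the optimal set and for any pooled region. For the optimal set, 3 of 97 nhr genes off chromosome V had a peak, or 3.09% (interval 0.642% to 8.77%), against 1.58% of all genes there, and 2 of 167 on V, or 1.20%, against 0.821%. Any pooled region was found at 84 of 97 off chromosome V, or 86.6% (interval 78.2% to 92.7%), against 79.9%, and at 130 of 167 on V, or 77.8%, against 77% of all genes there. By chromosome, the median rank of the strongest region ran from 4267.5 for the 22 nhr genes on X with a region to 11193 for the 130 on V. Gene length moved with this split, and its part in the result was not tested. The median nhr gene was 2929 bp long off chromosome V, against 2160 bp for all genes there, and 2146 bp on V, against 1754.5 bp for all genes there. Because a longer gene has a longer reach, density was also taken. It counts pooled regions of every rank, so it does not adjust the share at rank 1000 or better for gene length. Distinct pooled regions numbered 4.16 per 10 kb of nhr gene reach off chromosome V, against 3.14 for all genes there, and 3.07 on V, against 2.95 for all genes there. Over the whole family the density was 3.62 per 10 kb, against 3.10 for all protein-coding genes and 2.99 for the genome. It was 1.85 with the shorter list of replicate 2 alone.

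**Figure D4:**
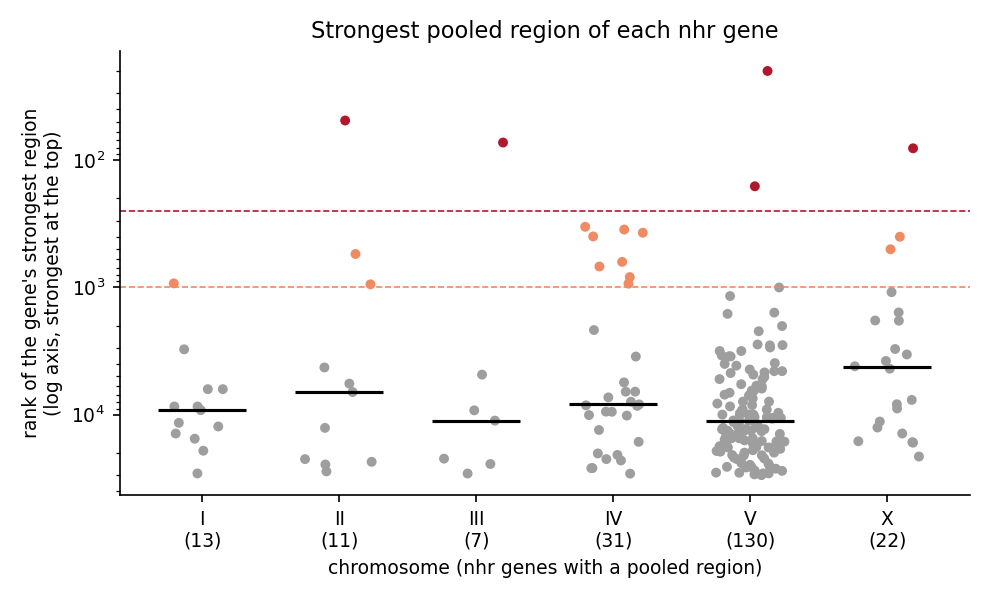
Rank of the strongest pooled region of each of the 214 nhr genes with a region (y axis, log scale, strongest at the top) by chromosome (x axis); black bars are medians and dashed lines mark ranks 253 and 1000. Chromosome V has 130 points, of which 2 lie above the lower line, and most points between the lines are on IV.

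The number of pooled regions per gene was uneven. Of the 264 genes, 50 had 0 regions, 82 had 1, 70 had 2 and 26 had 3, and the rest had 4 or more. nhr-27 had 44, the most. It is 102756 bp long, no protein-coding gene of the annotation is longer, and it has 11 other protein-coding genes inside it. Its density was 4.20 regions per 10 kb, and its best regions were intronic, at ranks 401 (16.6 in replicate 1 and 20.7 in replicate 2) and 967 (13.6 and 15.1 in the same order). The summit at rank 967 lay also in an intron of gei-3. Per 10 kb many members had more, nhr-3, nhr-14 and nhr-21 the most, with 12.2, 11.2 and 10.1 regions. nhr-46 had 8 regions and nhr-91 had 7, and nhr-1, nhr-3, nhr-26, nhr-48, nhr-49, nhr-64, nhr-120 and nhr-137 had 6 each. Of the 50 genes without a pooled region, 37 were on chromosome V and 13 elsewhere, and 22 also had none in either replicate list. The median reach of the 50 was 4056 bp, against 4358.5 bp for the 214 genes with a region. Some regions could not be given to a single gene, since 39 of the 484 (8.06%) were in reach of more than 1 nhr gene and 164 (33.9%), these included, in reach of at least 1 other protein-coding gene. The nearest 5′ end was that of a member for 365 (75.4%).

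At rank 1000 or better, introns held a larger share of the nhr regions than of the regions at all genes, and no such excess was seen in the optimal set. Counted as pairs of a gene and a region, 14 of the 25 nhr pairs of rank 1000 or better were intronic, or 56.0% (interval 34.9% to 75.6%), against 24.7% of such pairs over all genes. Among the peaks, 2 of 8 were intronic (interval 3.19% to 65.1%), against 21.7% over all genes. Upstream pairs made 8 of the 25, or 32.0%, against 53.9% over all genes. Coding exons held 0 of the 25, where up to 13.7% is allowed by the interval, against 10.2% over all genes. Of the 523 nhr pairs of every rank, 158 were intronic, or 30.2%, against 24.2% over all genes. nhr-27 alone gave 42 of these 158, and without it 116 of 479 were intronic, which is 24.2%, as over all genes. Of all 523 pairs, 151 lay in coding exons, or 28.9%, against 28.8%. At rank 1000 or better nhr-31 gave 3 of the 14 intronic pairs, and 12 of 23 pairs were intronic without nhr-27, or 52.2% (interval 30.6% to 73.2%). These intervals treat pairs as independent, although nhr-31, nhr-34 and nhr-27 each gave several, so they may be too narrow. The difference was not tested.

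The GATA word was searched within 50 bp of the summit. It was present at 4 of the 8 nhr peaks, or 50% (interval 15.7% to 84.3%), against 44.1% of the other 245 peaks. In flanking windows 500 bp to each side it was present in 31.3% of the 16 windows of the nhr peaks, against 23.3% of the 490 windows of the other peaks. At ranks 254 to 1000 it was present at 4 of 17 nhr regions, or 23.5%, against 39.5% of the other regions. At ranks 1001 to 5000 it was present at 14 of 56, or 25%, against 23.7%, and at lower ranks at 71 of 403, or 17.6%, against 20.6%. Flanking windows of the nhr regions held it in 23.5% at ranks 254 to 1000, 14.3% at ranks 1001 to 5000 and 21.1% at lower ranks. Those of the other regions held it in 19.3%, 20.7% and 20.6% in the same order. Over all 484 nhr regions the share was 19.2% (interval 15.8% to 23.01%), against 21.6% of the other pooled regions and 20.6% of flanking windows of the nhr regions. The share over the whole family lay above that of all regions with either replicate alone, at 24.3% against 23.6% in replicate 2 and 23.7% against 21.4% in replicate 1, and with 8 nhr peaks the interval for the peaks is wide. GATAAG was present at 2 of the 8 nhr peaks, those of nhr-68 and of nhr-80 upstream, against 24.9% of the other peaks and 5.52% of all pooled regions. Taking GATAAG with the GATA word, 5 of the 8 nhr peaks held a word, or 62.5%, against 44.9% of the other peaks. The 3 without a word were both nhr-14 peaks and the nhr-21 peak at the 5′ end. The GC content of the windows was 41.6 ± 2.43% at the nhr peaks (SD, n = 8 peaks), against 45.5 ± 7.76% at the other peaks (SD, n = 245 peaks). A word is a match of letters and not a measured site.

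**Figure D5:**
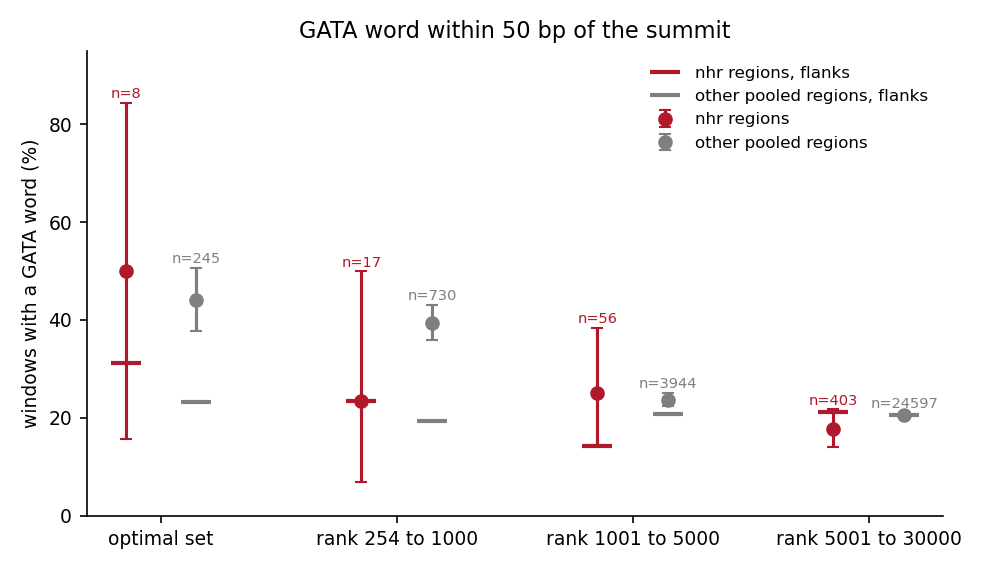
Share of 101 bp windows with the GATA word (y axis, percent) by rank of the region (x axis), for nhr regions (red) and other pooled regions (grey), with 95% exact binomial intervals and the number of regions above each; horizontal dashes are the flanking windows of the same regions. The nhr share is 50% at the 8 peaks and 17.6% at ranks 5001 to 30000.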

How the data were processed

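ELT-3 ChIP-seq of whole L1 larvae gave region lists for biological replicates 1 and 2 of 1 group, for both pooled and for an optimal set. The signal value of each region is a score deposited by the authors, and for its scale, the peak caller and the aligner the sources used here give nothing. Per the titles of the lists, the longer ones hold background as well as peaks, and the optimal set was thresholded by IDR, a measure of reproducibility between ranked lists. The lists in ce10 were not used. Positions are in ce11, whose assembly is WBcel235. Genes came from Ensembl release 115 and sequences from the RefSeq copy of the genome. Summits matched between lists within 100 bp.

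The members, role lists and tests were chosen with earlier results of these data known. Named genes were those with a peak, the 20 regions next in rank, the 5 genes with the most regions (8 genes tied for the fifth place), the 3 largest replicate gaps each way (over the best-ranked matched region of each gene, at rank 1000 or better) and all role lists; coregulators, hormone synthesis genes and targets came from a fixed list. With 1 group no test over samples could be made and none over genes was built. Alternatives were other distances, rank limits, words, windows and matching rules, and each replicate alone. The assignment, matching and word search were tested on simulated data. Python 3.11.15, numpy 2.4.6, pandas 2.3.3, scipy 1.17.1 and matplotlib 3.10.9 were used.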

Additional observations from a re-analysis of the deposited data

How the results depend on the processing

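Of 45 alternatives planned over 8 results, 29 kept the value within its tolerance, 16 moved it and 0 were labelled as reversing it. These labels do not follow the side of the background on which a value fell. That side turned for some results, as given below. Of 13 added after the data were seen, for the split by chromosome and the intron share, 9 kept it and 4 moved it. The intron share of 30.2% was 24.2% without nhr-27, whose own 42 intronic pairs make that difference. The cause of the other moves was not tested. With each replicate's list alone, nhr genes with a peak numbered 5 (replicate 1, 1.31% of all genes) to 8 (replicate 2, 1.47% of all genes). With the gene of the nearest 5′ end only there were 4 (0.761% of all genes), nhr-68 being lost to its neighbour. The count at rank 1000 or better was 18 (6.82%, against 5.29% of all genes), and 10 at rank 500 (3.79%, against 2.65%). It was 26 at rank 2000 (9.85%, against 10.2%). With replicate 1 alone it was 12 (4.55%, against 5.34%) and with replicate 2 alone 21 (7.95%, against 5.41%). The side of the all-gene share thus turned between the replicates and at rank 2000. The share of nhr regions with the GATA word (19.2%, against 21.6% of all pooled regions) was also below that of all regions within 25 bp (11.2%, against 11.4%), for TGATAA (9.50%, against 10.6%), at rank 1000 or better (32.0%, against 40.4%) and where matched in both replicates (24.6%, against 26.6%). It was above it within 100 bp (42.1%, against 38.3%), for GATAAG (5.99%, against 5.52%), without replicate 1 (24.3%, against 23.6%) and without replicate 2 (23.7%, against 21.4%), so the direction of this difference turned. The share matched in both replicates (14.3%) was 10.1% within 50 bp, 19.6% within 200 bp and 92.0% at rank 1000 or better. The median rank of nhr regions, 49.6% of the list, was 45.9% to 49.1% with a replicate left out, and the density of 3.62 per 10 kb was 1.85 to 3.24. The correlation of replicate signals (0.57) was 0.44 with matching within 200 bp. On chromosome V the count of 2 was 1 with the nearest 5′ end only (1.88% of all genes there). It was 3 without replicate 2 (3.68% of all genes there) and 5 without replicate 1 (4.005%). The count of 16 elsewhere was 9 without replicate 2 (5.89% of all genes there) and 16 without replicate 1 (5.88%). No paired analysis was possible because there is 1 group. Read depth is unknown, so a region missing from a list cannot be told from one not bound there.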
